A study of Mus musculus with 36 samples.

Results

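The complement components examined here were *C1qa*, *C1qb*, *C1qc*, *C2*, *C3*, *C4b*, *Cfb*, *C3ar1* and *Serping1*, 9 genes that were looked up among the array's oligonucleotides by gene symbol. Of these, 5 genes, *C1qa* (NM_007572), *C1qb* (NM_009777), *C1qc* (NM_007574), *C3ar1* (NM_009779) and *Serping1* (NM_009776), each had 1 annotated oligonucleotide among 8129 on the array. No oligonucleotide carried the symbol of *C2*, *C3*, *C4b* or *Cfb* in the annotation used here, so these 4 genes were not analysed here. Quadriceps muscle came from BSG mice, which lack beta-sarcoglycan, and GSG mice, which lack gamma-sarcoglycan, at 9 ages. These were 1, 2.5 and 4 weeks, every 2 weeks from 6 to 14 weeks, and 20 weeks. There were 2 mice per age and strain, 36 mice in all, and none is described as treated. Both strains are models of limb-girdle muscular dystrophy, in which the sarcoglycan complex of the muscle fibre membrane is incomplete. Wild-type and dystrophin-deficient MDX arrays were not analysed here, so each value is set against the same strain at 1 week of age.

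Complement is a set of plasma and cell surface proteins that tags damaged cells, immune complexes and microbes, and calls in phagocytes. In the classical pathway, C1q, a hexamer built from the A, B and C chains that *C1qa*, *C1qb* and *C1qc* encode, binds its target and activates the proteases C1r and C1s. These cleave C4 and C2, which leads to the cleavage of C3, and the fragment C3a acts through the receptor encoded by *C3ar1*. *Serping1* encodes the C1 inhibitor, which blocks C1r and C1s. Most complement proteins are made by the liver, whereas the C1q chains are made mainly by macrophages and related myeloid cells, which enter dystrophic muscle as fibres die.

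The promoters of *C1qb*, *C1qc* and *C3ar1* are shown because these 3 of the 5 measured genes were matched in RefSeq. The C1q genes lie next to each other and their chains form 1 protein. Each sequence runs from 250 bases before to 50 bases after the gene's start in RefSeq (GRCm38.p6) and is written 5′ to 3′ on the gene's strand. Capitals mark a match to one of the motifs searched.
*C1qb* promoter, chr4:136886151-136886450, minus strand: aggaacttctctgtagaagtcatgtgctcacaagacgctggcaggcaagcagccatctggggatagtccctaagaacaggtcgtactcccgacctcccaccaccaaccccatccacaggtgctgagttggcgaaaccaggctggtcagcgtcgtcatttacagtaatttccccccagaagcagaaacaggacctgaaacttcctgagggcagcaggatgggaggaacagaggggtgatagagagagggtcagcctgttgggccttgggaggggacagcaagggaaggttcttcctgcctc
*C1qc* promoter, chr4:136892865-136893164, minus strand: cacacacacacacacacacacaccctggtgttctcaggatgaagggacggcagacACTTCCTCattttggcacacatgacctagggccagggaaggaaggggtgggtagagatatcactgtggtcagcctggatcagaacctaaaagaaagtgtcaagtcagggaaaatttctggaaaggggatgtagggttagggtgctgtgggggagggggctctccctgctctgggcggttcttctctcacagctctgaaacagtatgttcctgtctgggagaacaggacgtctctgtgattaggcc
*C3ar1* promoter, chr6:122856108-122856407, minus strand: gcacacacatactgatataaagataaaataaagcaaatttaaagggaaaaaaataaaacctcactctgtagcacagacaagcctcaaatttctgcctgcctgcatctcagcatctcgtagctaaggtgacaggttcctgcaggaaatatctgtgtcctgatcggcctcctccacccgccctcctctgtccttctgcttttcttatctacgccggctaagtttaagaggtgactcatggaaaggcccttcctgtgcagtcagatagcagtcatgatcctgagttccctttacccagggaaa
On both strands of these 3 windows the letters GAGGAAGT (a PU.1-like element of myeloid genes), TTCNNNGAA (a GAS-like element), GAAANNGAA (an ISRE-like element), GGGANTTCC (an NF-kB-like element) and TTGCGCAA (a C/EBP-like element) were searched. The only match was the reverse complement of GAGGAAGT in *C1qc*, from base -195 to base -188 counted from the start. Of 32851 promoter windows of the same length, 3.20% held GAGGAAGT, 8.30% TTCNNNGAA, 8.56% GAAANNGAA, 1.68% GGGANTTCC and 0.183% TTGCGCAA. A match is a run of letters and not a measured binding site.

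On each array the RNA of 1 mouse, labelled with Cy5, was set against that of another mouse of the same strain and the preceding age, labelled with Cy3. In each strain 2 loops of 9 arrays were closed by an array of 1 week over 20 weeks. The log ratios were taken as log2 of Cy5 over Cy3, since neither their base nor their numerator is given in the sources used here. This is the later over the earlier age on all but the closing arrays. The direction is likely rather than settled. With it, *Dlk1*, *H19*, *Mest*, *Cdkn1c* and *Col1a1*, which newborn muscle expresses strongly, fell between 1 and 20 weeks in both strains, *Dlk1* with changes of -3.05 in BSG and -3.54 in GSG. They are the 5 called of 14 oligonucleotides of newborn muscle genes, of which 0 were called higher. In each strain 3 of the 14 had a fitted change above 0, the highest being *Col3a1* with 0.58 in BSG and 1.02 in GSG. With the sign turned, every rise and fall given here would turn too. Log ratios give no absolute level, so neither the loss of a sarcoglycan gene nor the tissue label could be checked from them. The array medians lay between -0.06 and 0.04. The duplicate spots of an array correlated at a median of 0.32 and 0.58 in the BSG loops 1 and 2 and of 0.36 and 0.65 in the GSG loops 1 and 2, and 9 of 36 arrays lay below 0.3. Over the 36 arrays the 2 spots of an oligonucleotide correlated at 0.91 for *C1qa*, 0.88 for *C1qc*, 0.91 for *C3ar1*, 0.46 for *Serping1* and 0.10 for *C1qb*. The values of *C1qb* therefore depend on which spot is read.

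*C3ar1*, the receptor of C3a on myeloid cells, had the largest value of the 5 genes at 20 weeks in both strains. In GSG muscle the 2 mice of 20 weeks lay at log2 levels of 1.05 and 1.47 relative to the 1-week mouse of their loop, and in BSG muscle at 1.23 and 0.40. All 4 mice were above 1 week, and the BSG and GSG mice overlapped. The fitted change in GSG was 1.26 ± 0.37 (SE, 2 mice at each age), a 2.39-fold higher level, with an adjusted p of 0.0533 (limma with Benjamini-Hochberg adjustment over 8129 oligonucleotides), just outside the threshold of 0.05. In BSG it was 0.81 ± 0.37, or 1.75-fold, with an adjusted p of 0.386. A higher level in whole muscle can come from more cells that carry the RNA or from more RNA per cell, which cannot be told apart here.

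The C1q chains A and C were the next highest at 20 weeks. *C1qa* lay at 0.55 and 1.30 in the 2 GSG mice and at 0.41 and 0.73 in the 2 BSG mice. The fitted changes were 0.92 ± 0.42 in GSG, or 1.89-fold, with an adjusted p of 0.284, and 0.57 ± 0.42 in BSG, with an adjusted p of 0.717. *C1qc* lay at 0.38 and 0.81 in GSG and at 0.40 and 0.50 in BSG. Its fitted changes were 0.60 ± 0.34 in GSG (adjusted p = 0.465) and 0.45 ± 0.34 in BSG (adjusted p = 0.729). For both chains each of the 4 mice of 20 weeks was above 1 week and the strains overlapped.

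*C1qb* and *Serping1* stayed close to the 1-week level at 20 weeks. *C1qb* lay at 0.36 and 0.14 in the GSG mice and at -0.06 and -0.14 in the BSG mice. *Serping1* lay at 0.16 and 0.04 in GSG and at -0.10 and -0.13 in BSG. For these genes the mice of the strains did not overlap, with GSG the higher, but the fitted changes of 0.25 ± 0.17 and 0.10 ± 0.20 in GSG and of -0.10 ± 0.17 and -0.11 ± 0.20 in BSG had adjusted p of 0.571 or more in limma. How often the mice of the strains part in this way over all oligonucleotides was not counted.

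In the change from 1 to 20 weeks, 0 of the 5 genes passed the threshold in GSG, where 3.74% of all oligonucleotides did, and 0 of 5 in BSG, where 1.28% did (limma). At an unadjusted p under 0.05 there were 2 of 5 in GSG, *C1qa* and *C3ar1*, where 14.7% of all oligonucleotides reached it, and 1 of 5 in BSG, *C3ar1*, where 11.6% did. In GSG, *C3ar1* passed when both spots were kept as separate observations (adjusted p = 0.000841), with a term for the dyes (0.0421), when loops were a random block (0.0384) or without GSG loop 1 (0.00703). It did not pass in the other alternatives, in which the adjusted p was at most 0.295. *C1qa* passed in GSG with both spots kept (adjusted p = 0.0398) and in no other alternative. The fit with both spots used 1 correlation of 0.41 between spots for all oligonucleotides, below the 0.91 of *C3ar1* and of *C1qa*. It thus treats their 2 spots as more independent than they are, and adds no mice. The 5 genes had a median change of 0.60 in GSG and 0.45 in BSG, against -0.01 and -0.02 over all oligonucleotides. Only 0.480% of oligonucleotides had a higher fitted change than *C3ar1* in GSG and 2.10% in BSG, and for *C1qa* the shares were 1.17% and 4.42%.

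**Figure D1:**
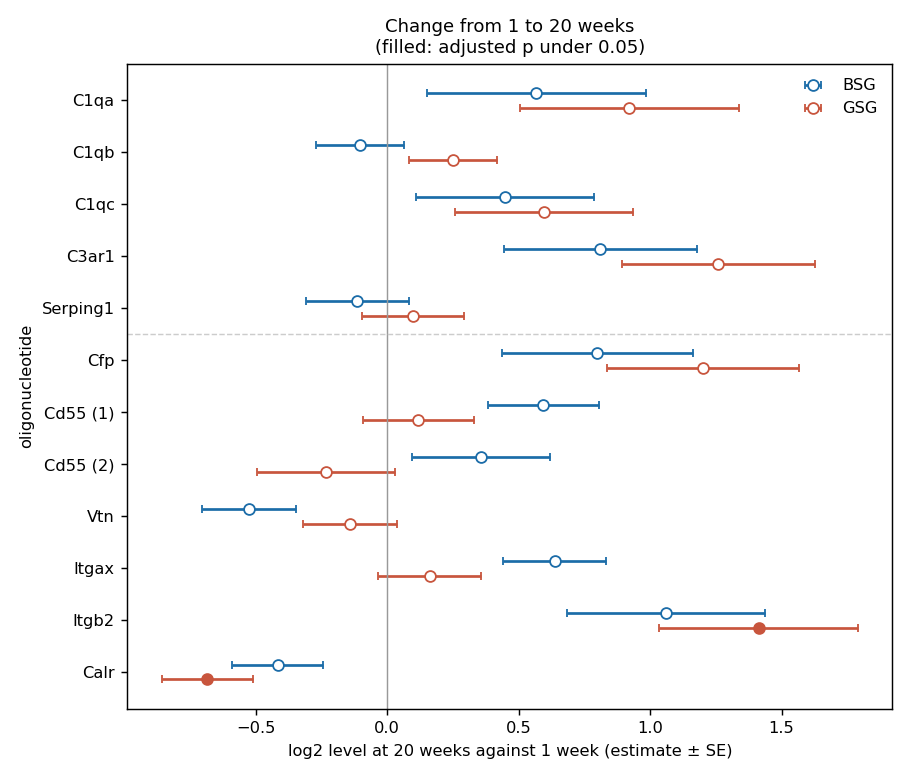
Fitted change from 1 to 20 weeks (x axis, log2, estimate ± SE) of the 5 complement genes, above the dashed line, and of other complement genes, below it, in BSG (blue) and GSG (red), with filled points for an adjusted p under 0.05. *C3ar1* lies at 0.81 and 1.26, and only the GSG values of *Itgb2* and *Calr* are filled.

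The mean of the 2 strains, a contrast added after the values were seen, had a smaller error. By it *C3ar1* rose between 1 and 20 weeks by 1.04 ± 0.26, or 2.05-fold, with an adjusted p of 0.0145 in limma. It was the only 1 of the 5 genes called, where 5.79% of all oligonucleotides were. The 95% interval of the change ran from 0.50 to 1.57. *C1qa*, with 0.74 ± 0.29 (adjusted p = 0.166), and *C1qc*, with 0.52 ± 0.24 (adjusted p = 0.267), did not pass, and *C1qb* and *Serping1* lay at 0.07 ± 0.12 and -0.01 ± 0.14. The call of *C3ar1* was lost without BSG loop 1 (adjusted p = 0.467), without BSG loop 2 (0.0772), with the arrays scaled to the same spread (0.150) and without the 9 arrays of poor duplicates (0.0647).

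Between these ages *C3ar1* in GSG was near the 1-week level until 4 weeks and above it in both mice at every age from 6 weeks on. In every gene the later ages of a loop are set against its single 1-week mouse, so their signs are not independent. At 2.5 weeks the 2 GSG mice lay at -0.16 and 0.09, and at 4 weeks at 0.36 and -0.03, close to 1 week. At 6 weeks they lay at 1.22 and 1.55, and at 8 weeks at 2.01 and 1.00. Both mice of 6 weeks were thus above all mice of 2.5 and 4 weeks. The arrays of 6 over 4 weeks, which compare these ages directly, gave 0.88 and 1.62. At 10 weeks the mice parted, at 0.32 in loop 1 and 1.76 in loop 2, and the array of 10 over 8 weeks gave -1.67 in loop 1 and 0.81 in loop 2. At 12 weeks they lay at 0.54 and 0.52, and at 14 weeks at 1.25 and 0.82. The fitted level was highest at 8 weeks (1.50 ± 0.58) and lowest at 2.5 weeks (-0.03 ± 0.37), and at 12 weeks (0.53 ± 0.55) it lay below that of the other ages from 6 weeks on.

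In BSG, *C3ar1* reached its highest fitted level at 20 weeks (0.81 ± 0.37), after 0.02 ± 0.58 at 8 weeks, 0.57 ± 0.55 at 12 weeks and 0.67 ± 0.48 at 14 weeks. The mice of loop 1 carried most of this. They lay at 1.02, 1.25 and 1.23 at 12, 14 and 20 weeks, whereas the mice of loop 2 lay at 0.13, 0.10 and 0.40. Both mice were above 1 week at 5 of the 8 later ages, against 6 of 8 in GSG, ages that share the 1-week mouse of their loop. The test of any change with age gave an unadjusted p of 0.0117 for *C3ar1* in GSG (adjusted p = 0.373) and of 0.389 in BSG in limma.

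**Figure D2:**
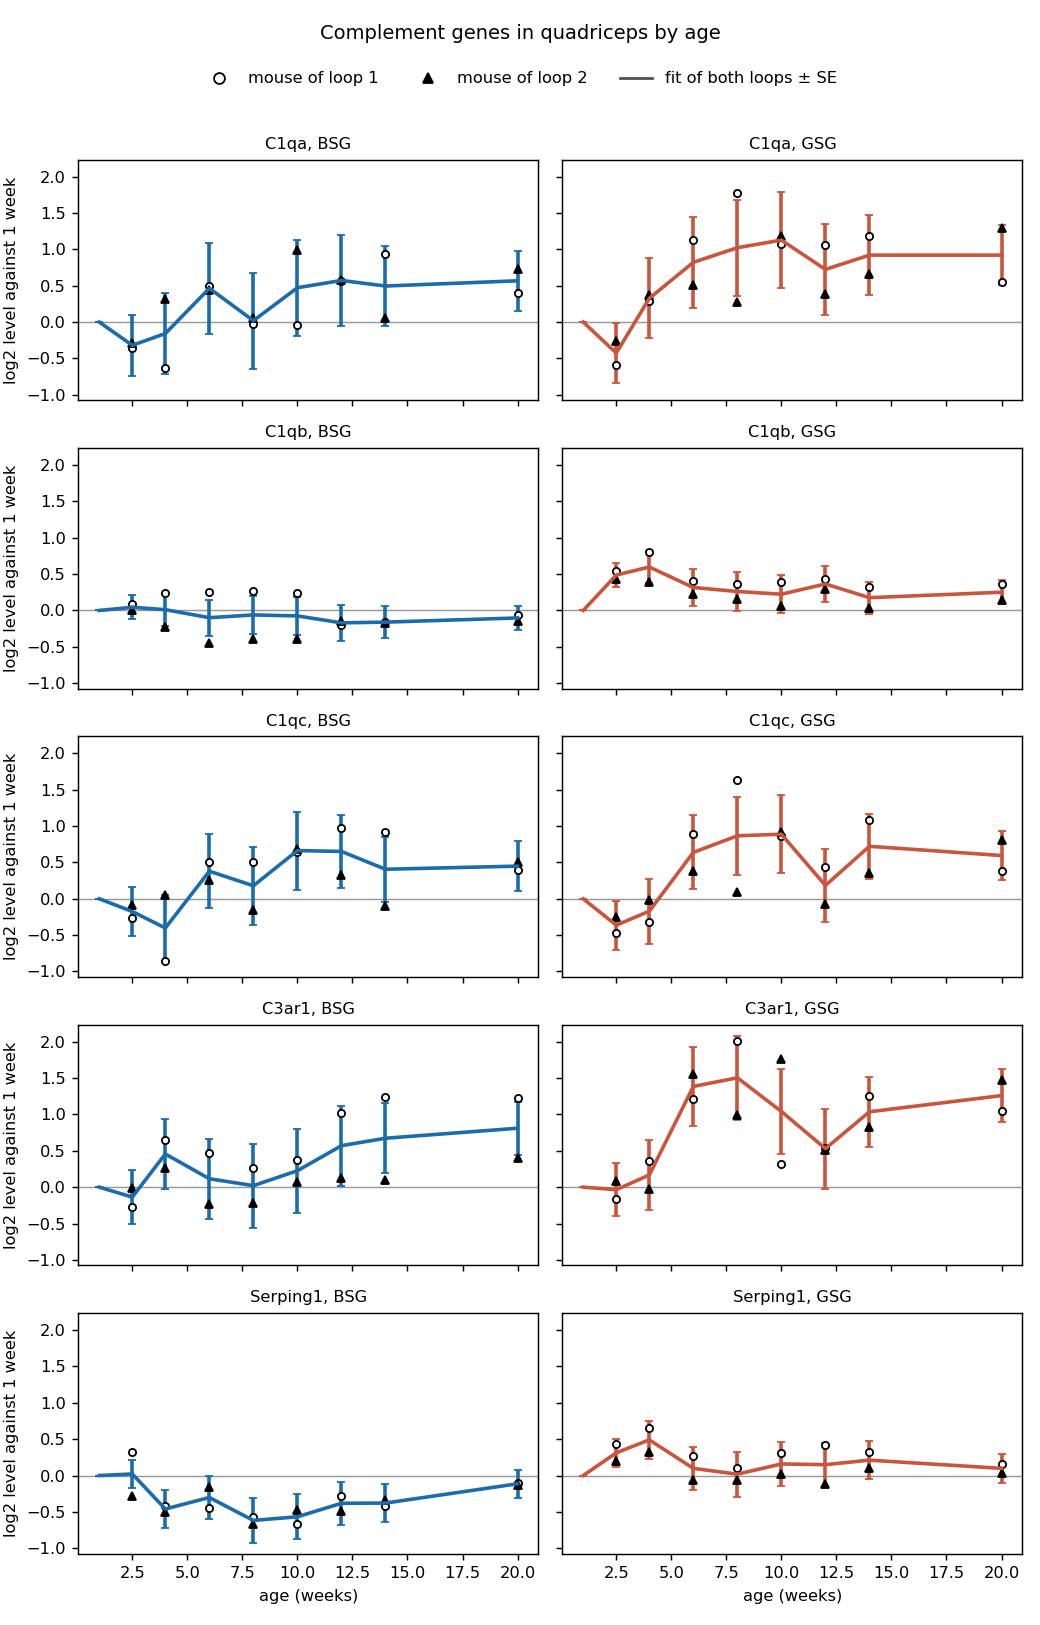
Log2 level of each complement gene relative to 1 week (y axis) against age in weeks (x axis) in BSG (left) and GSG (right). Circles and triangles are the single mice of loops 1 and 2, and the line is the fit of both loops with its SE. *C3ar1* in GSG lies near 0 until 4 weeks and reaches 1.39 at 6 weeks, while *Serping1* lies below 0 in BSG from 4 weeks on.

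The C1q chains A and C had fitted levels below 1 week at 2.5 weeks and above it from 6 weeks on, in both strains. In BSG at 8 weeks, however, the levels were close to 1 week, at 0.02 ± 0.66 for *C1qa* and 0.18 ± 0.54 for *C1qc*. In GSG at 2.5 weeks *C1qa* lay at -0.60 and -0.26 in the 2 mice and *C1qc* at -0.47 and -0.26. In BSG at that age *C1qa* lay at -0.35 and -0.29 and *C1qc* at -0.26 and -0.09. All 4 mice were thus below 1 week in both genes at 2.5 weeks, by fitted values between -0.17 and -0.43 whose standard errors were 0.34 to 0.42. From 6 to 20 weeks every GSG mouse was above 1 week in *C1qa*, with values from 0.27 to 1.78. The fitted level of *C1qa* in GSG was highest at 10 weeks (1.13 ± 0.66, mice at 1.08 and 1.18), and that of *C1qc* at the same age (0.89 ± 0.54, mice at 0.86 and 0.92). At 8 weeks the GSG mouse of loop 1 was much higher than that of loop 2, at 1.78 against 0.27 in *C1qa* and at 1.64 against 0.09 in *C1qc*.

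In BSG the fitted levels of both chains had a lower maximum, with a range of -0.32 to 0.57 for *C1qa* and -0.40 to 0.66 for *C1qc*, against -0.43 to 1.13 and -0.36 to 0.89 in GSG. The 2 BSG mice lay on opposite sides of 1 week at 3 of the 8 later ages, both for *C1qa* and for *C1qc*. At 4 weeks the mouse of loop 1 lay at -0.63 in *C1qa* and -0.86 in *C1qc*, and that of loop 2 at 0.31 and 0.05. The fitted level of *C1qa* was highest at 12 weeks (0.57 ± 0.63, mice at 0.57 and 0.57), and that of *C1qc* at 10 weeks (0.66 ± 0.54, mice at 0.65 and 0.68).

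*Serping1*, the inhibitor of the first complement proteases, was below 1 week in both BSG mice at 7 of the 8 later ages, all but 2.5 weeks. Its lowest fitted level was at 8 weeks (-0.62 ± 0.31, mice at -0.58 and -0.66), followed by 10 weeks (-0.57 ± 0.31, mice at -0.67 and -0.47). In GSG both mice were above 1 week at 5 of the 8 later ages, and the highest level was at 4 weeks (0.49 ± 0.26, mice at 0.65 and 0.33). At 4 weeks the BSG mice lay at -0.42 and -0.50, apart from the GSG mice of that age. *C1qb* was above 1 week in both GSG mice at all 8 later ages, with fitted levels from 0.18 to 0.60, and in BSG the 2 mice lay on opposite sides at 5 ages.

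When the 9 ages were put in order of the fitted level, no gap between neighbours in that order was larger than 1.38 times its standard error in any of the 5 genes and either strain. That largest gap, 0.51 ± 0.37, separated 12 from 14 weeks in *C3ar1* of GSG. The order of neighbours is thus not settled, and since sorting places like levels side by side, these gaps do not show whether ages differ. Ages farther apart in the order were not compared in this way. Averaged over the 8 later ages, *C3ar1* lay at 0.86 ± 0.38 in GSG (adjusted p = 0.504) and 0.34 ± 0.38 in BSG (0.999) relative to 1 week in limma. *C1qa* lay at 0.68 ± 0.43 and 0.26 ± 0.43, *C1qc* at 0.42 ± 0.35 and 0.27 ± 0.35, *C1qb* at 0.33 ± 0.17 and -0.08 ± 0.17, and *Serping1* at 0.19 ± 0.20 and -0.35 ± 0.20 in GSG and BSG respectively. In this comparison 0 of 5 genes passed in GSG, where 0.652% of all oligonucleotides did, and 0 of 5 in BSG, where 0.0738% did. At an unadjusted p under 0.05 there were 1 of 5 in GSG, *C3ar1*, where 8.35% of all oligonucleotides reached it, and 0 of 5 in BSG, where 6.68% did. Without the 9 arrays of poor duplicates the GSG means turned to -0.84 for *C1qa*, -0.34 for *C1qc*, -0.077 for *C1qb* and -0.62 for *Serping1*, and that of *C3ar1* kept its sign.

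The values per loop, each a mean over 8 mice of different ages against the 1-week mouse of the loop, bear on how far these means rest on 1 loop. For *C3ar1* the mean over the 8 later ages was 0.82 and 0.90 in the GSG loops 1 and 2, and 0.62 and 0.06 in the BSG loops 1 and 2. The GSG loops were thus close to each other and above both BSG loops. For *Serping1* it was 0.33 and 0.05 in GSG and -0.32 and -0.38 in BSG, so the loops of the strains lay on opposite sides of the 1-week level. The share of all oligonucleotides whose loops part by strain was not counted.

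Whether the strains differed was tested directly, as BSG minus GSG. In the change from 1 to 20 weeks the difference was -0.45 for *C3ar1* (95% interval -1.52 to 0.62), -0.35 for *C1qa* (-1.57 to 0.86), -0.35 for *C1qb* (-0.84 to 0.13), -0.15 for *C1qc* (-1.13 to 0.84) and -0.21 for *Serping1* (-0.78 to 0.36). All 5 values were negative, which means a lower value in BSG, and all 5 intervals include 0. For *C1qb* and *Serping1* the fitted changes of the strains had opposite signs. In the mean of the 8 later ages the difference was largest for *Serping1*, at -0.54 (-1.13 to 0.04, unadjusted p = 0.0673, adjusted p = 1.00 in limma), and for *C3ar1*, at -0.52 (-1.62 to 0.58). *C1qa* and *C1qb* differed by -0.42 and -0.41 and *C1qc* by -0.15. In both comparisons 0 of 5 genes passed, as did 0 of all 8129 oligonucleotides (0.0%) with limma, of which 7.21% and 3.56% had an unadjusted p under 0.05. None of the 5 genes did. The intervals reach -1.52 in *C3ar1* and -1.57 in *C1qa*, so they do not show that the strains acted alike.

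The study's own kind of test, a Hotelling test of the time profile, was also applied to BSG against GSG. With a polynomial of degree 2 it gave an unadjusted p of 0.822 for *C3ar1*, 0.811 for *C1qa*, 0.111 for *C1qb*, 0.937 for *C1qc* and 0.320 for *Serping1*. Without the order of the ages it gave 0.222, 0.923, 0.441, 0.659 and 0.180. In each of these tests 0 of 5 genes passed after adjustment, as did 0 of 8129 oligonucleotides (0.0%), of which 358 and 127 had an unadjusted p under 0.05. A moderated F test on these coefficients in limma called 0 as well.

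The quadratic coefficient is negative where the profile bends downwards, as in a rise that then falls or that levels off, and it does not tell these apart. It was negative in GSG for *C1qa* (-0.06 ± 0.04 per squared time point), *C1qc* (-0.05 ± 0.04) and *C3ar1* (-0.05 ± 0.04), and about 0.01 for *C1qb* and *Serping1*. In BSG it was -0.02 ± 0.04 for *C1qa*, -0.03 ± 0.04 for *C1qc*, 0.02 ± 0.04 for *C3ar1* and 0.04 ± 0.02 for *Serping1*. After adjustment 0 of 5 genes passed in either strain, as did 0 of 8129 oligonucleotides (0.0%) in limma, of which 159 in GSG and 173 in BSG had an unadjusted p under 0.05. The test of any change with age also called 0 of the 5 genes, where it called 0.0984% of oligonucleotides in BSG and 0.590% in GSG.

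Over the 36 arrays the log ratios of *C1qa* and *C1qc* correlated at 0.89, the closest pair among the 5 genes. *C3ar1* correlated with *C1qa* at 0.63 and with *C1qc* at 0.60. *C1qb* did not follow the other chains, with correlations of -0.26 with *C1qa* and -0.32 with *C1qc*, and its 2 spots hardly correlated with each other. *Serping1* correlated with *C1qa* at 0.05, with *C1qc* at 0.04, with *C1qb* at 0.31 and with *C3ar1* at -0.24. These correlations are descriptions over 36 arrays, in which neighbouring arrays of a loop share the RNA of a mouse.

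**Figure D3:**
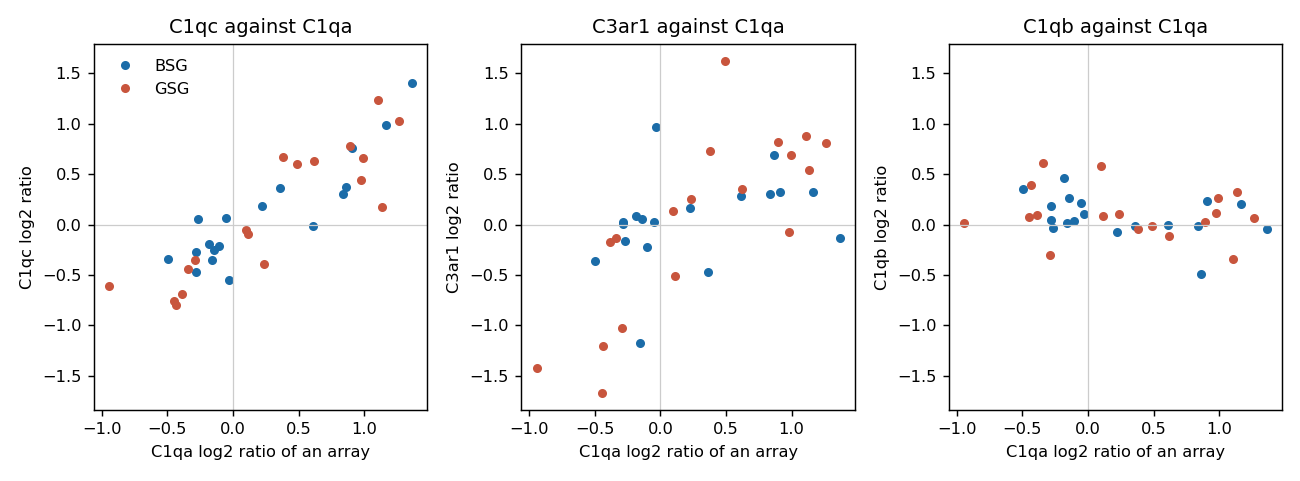
Log2 ratios of the 36 arrays for *C1qc*, *C3ar1* and *C1qb* (y axes) against *C1qa* (x axis), with BSG arrays in blue and GSG arrays in red. The points for *C1qc* lie along a line (correlation 0.89), those for *C3ar1* scatter more (0.63), and those for *C1qb* show no rise with *C1qa* (-0.26).

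The single arrays show where the 2 chains moved together. In BSG loop 1 the array of 6 over 4 weeks gave 1.37 for *C1qa* and 1.40 for *C1qc*. In GSG loop 1 the same ages gave 1.11 and 1.24, and in GSG loop 2 the array of 10 over 8 weeks gave 1.26 and 1.02. The chains parted on the array of 4 over 2.5 weeks in GSG loop 1, with 1.13 for *C1qa* and 0.17 for *C1qc*. The duplicate spots of that array correlated at 0.20.

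Among all oligonucleotides with 1 gene symbol, those most like the mean of the 3 C1q chains over the 36 arrays were *Apoe*, an apolipoprotein that macrophages also make (correlation 0.87), *Ninj1*, a membrane protein (0.86), *Folr2*, a folate receptor of tissue macrophages (0.85), *Ly86*, a partner of a Toll-like receptor homologue on B cells and myeloid cells (0.85), and *Tyrobp*, a signalling adaptor of myeloid cells (0.82). For *C3ar1* they were *Lgals3*, the galectin of activated macrophages (0.92), *Vav1*, a signalling protein of blood cells (0.92), and *Itgb2*, the beta chain of leukocyte integrins (0.91). For *Serping1* they were *Ivd*, an enzyme of leucine breakdown (0.68), *Aqp1*, a water channel of the endothelium (0.68), and *Psmd2*, a proteasome subunit (0.66), and for *C1qb* they were *Rarb*, a retinoic acid receptor (0.77), *D1Pas1*, an RNA helicase gene (0.66), and *Gabre*, a GABA receptor subunit (0.66). *Apoe* and *Tyrobp* were also among the 3 most like *C1qa* alone and the 3 most like *C1qc* alone. The mean of the chains includes *C1qb*, which correlated with *C1qa* and *C1qc* at -0.26 and -0.32, so the likeness of the mean does not hold for *C1qb*.

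Of 13 macrophage genes measured, 12 correlated above 0.5 with *C3ar1*, 10 with *C1qa* and 8 with *C1qc* over the arrays, and 0 with *C1qb* or *Serping1*. Of all oligonucleotides, 3.28%, 1.78% and 2.36% correlated above 0.5 with *C3ar1*, *C1qa* and *C1qc*. The median correlation with the 13 genes was 0.79 for *C3ar1*, 0.63 for *C1qa*, 0.55 for *C1qc*, -0.10 for *C1qb* and -0.19 for *Serping1*. With 7 neutrophil genes and 6 lymphocyte genes the median correlations of *C3ar1*, *C1qa* and *C1qc* lay between -0.15 and 0.06.

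The macrophage genes themselves were higher at 20 than at 1 week in the fit for 12 of 13 in each strain. In GSG 6 of the 13 passed the threshold, all higher, and in BSG 1, *Clec7a*, with medians of 1.05 and 0.88. *Cd74*, the invariant chain of MHC class II, rose by 2.28 in GSG (limma adjusted p = 0.000111), and its BSG value was 1.21 (0.0689). *Mpeg1*, a pore-forming protein of macrophages, rose by 2.09 in GSG (0.00598), with 1.34 in BSG (0.153). *Clec7a*, a receptor for fungal glucans, rose by 2.06 in GSG (0.00374) and 1.93 in BSG (0.0185). The change of *C3ar1* lay above the median of the 13 genes in GSG (1.26 against 1.05) and below it in BSG (0.81 against 0.88), and those of *C1qa* and *C1qc* lay below it in both strains. The part that macrophage number plays in the complement values was not tested. Neutrophil, lymphocyte and skeletal muscle lists had 0 of 7, 0 of 6 and 0 of 8 oligonucleotides called in either strain. At an unadjusted p under 0.05 in limma these lists held 2, 1 and 0 oligonucleotides in BSG and 1, 0 and 1 in GSG. Of all oligonucleotides, 11.6% in BSG and 14.7% in GSG reached it.

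The rest of the pathway, 28 other complement genes with 31 oligonucleotides, had values spread on both sides of 0. Their median change from 1 to 20 weeks was 0.02 in GSG and 0.12 in BSG. At an unadjusted p under 0.05 in limma there were 4 of 31 in GSG and 9 of 31 in BSG. Of all oligonucleotides, 14.7% in GSG and 11.6% in BSG reached it. After adjustment 0 of 31 passed in BSG, and in GSG 1 oligonucleotide rose and 1 fell, where 1.28% and 3.74% of all oligonucleotides passed. The gene that rose was *Itgb2*, which encodes the beta chain of the complement receptors 3 and 4, with mice at 1.27 and 1.55 and a fitted change of 1.41 ± 0.38 (limma adjusted p = 0.0342). Its BSG mice lay at 1.40 and 0.72, and the fitted value of 1.06 ± 0.38 did not pass (0.214). The gene that fell was *Calr*, which encodes calreticulin, a chaperone that also binds C1q, with mice at -0.64 and -0.72 and a fitted change of -0.68 ± 0.17 (0.0234). In BSG it lay at -0.42 ± 0.17 (0.325).

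*Cfp* encodes properdin, which stabilises the C3 convertase of the alternative pathway and is made by myeloid cells. It lay at 0.86 and 1.55 in the GSG mice of 20 weeks and at 1.03 and 0.57 in the BSG mice, so all 4 mice were above 1 week. Its fitted changes were 1.20 ± 0.36 in GSG (limma adjusted p = 0.0661) and 0.80 ± 0.36 in BSG (0.388), and in the mean of the strains it rose by 1.00 ± 0.26 (0.0180). *Itgax*, the alpha chain of complement receptor 4, lay at 0.67 and 0.60 in BSG (0.64 ± 0.20, adjusted p = 0.118) and at 0.24 and 0.08 in GSG. *Vtn*, which encodes vitronectin, an inhibitor of the membrane attack complex, lay at -0.64 and -0.41 in BSG (-0.53 ± 0.18, 0.187) and at 0.26 and -0.54 in GSG. *Cd55*, which encodes a regulator that breaks up C3 convertases, had 2 oligonucleotides at 0.59 ± 0.21 and 0.36 ± 0.26 in BSG and at 0.12 ± 0.21 and -0.23 ± 0.26 in GSG.

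Of the 11 oligonucleotides for 10 genes induced by interferon gamma, 1 passed in BSG and 0 in GSG. In BSG *Iigp1* rose by 1.16 (limma adjusted p = 0.0191). At an unadjusted p under 0.05 in limma there were 7 of 11 in BSG and 5 of 11 in GSG. Of all oligonucleotides, 11.6% in BSG and 14.7% in GSG reached it. The median changes were 0.39 in BSG and 0.37 in GSG, and the median correlation of the list with *C3ar1* over the arrays was 0.36. Genes of fibroblasts had 0 of 8 oligonucleotides called higher in either strain, with 2 called lower in GSG, *Col1a1* and *Postn*, and 1 in BSG, *Col1a1*. Of 7 liver plasma protein genes, 0 passed in either strain. At an unadjusted p under 0.05 there was 1 of 7 in each, *Hp*, beside the 11.6% and 14.7% of all oligonucleotides. Its fitted changes were 1.37 ± 0.37 in BSG (limma adjusted p = 0.0661) and 1.20 ± 0.37 in GSG (0.0669). In the mean of the strains *Hp* rose by 1.29 ± 0.26 (0.00246). There 3 of the 11 interferon gamma oligonucleotides and 7 of 13 macrophage ones were also called higher, where 5.79% of all oligonucleotides were called.

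The loops also allow a check of each gene against itself, because the 9 log ratios around a closed loop should add to 0. For *C1qa* they added to 2.21 and 2.11 in the BSG loops 1 and 2 and to 2.28 and 3.17 in the GSG loops 1 and 2, which is an offset of 0.27 per array towards Cy5. For *C1qc* the sums were 0.38, 1.40, 0.23 and 1.79, and for *C3ar1* 0.43, 0.28, 0.21 and 0.39. *C1qb* gave -0.43, 1.88, 0.55 and 1.38, and *Serping1* -0.87, 1.65, 0.63 and 2.14. The mean sum of *C1qa*, 2.44, was farther from 0 than that of all but 6.94% of oligonucleotides, whereas 76.9% lay farther from 0 than *C3ar1* with its mean of 0.33. An equal offset on all 9 arrays of a complete loop leaves the fitted ages unchanged and enlarges their error. With a dye term in the fit the adjusted p of *C1qa* in GSG went from 0.284 to 0.140, at the same change of 0.92.

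**Figure D4:**
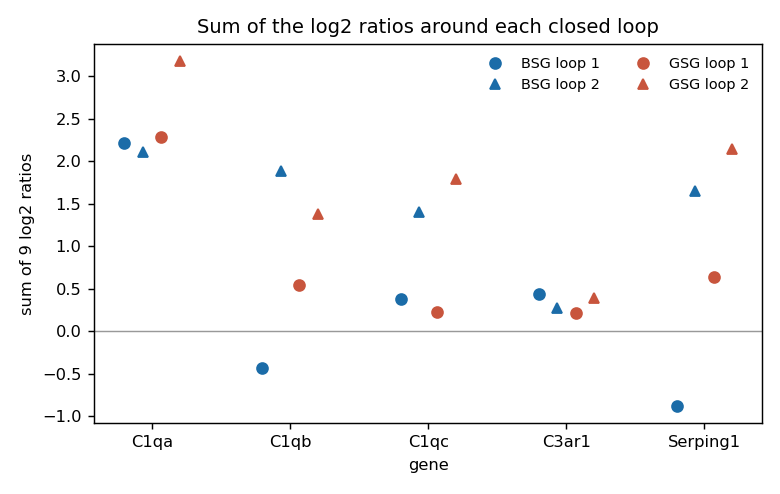
Sum of the 9 log2 ratios around each closed loop (y axis) for each complement gene (x axis), with circles for loop 1, triangles for loop 2, blue for BSG and red for GSG. A closed loop should give 0, and *C1qa* lies between 2.11 and 3.17 in all 4 loops while *C3ar1* lies between 0.21 and 0.43.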

How the data were processed

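Amplified RNA from the quadriceps of 36 mice, carrying a Cy3 or Cy5 label, was hybridised on 36 two-colour oligonucleotide arrays. The authors removed spatial, dye and array effects with the smida R package and deposited log ratios, taken here as log2 values of Cy5 over Cy3, with the base not stated in the sources used here. The 16416 spots form 8208 pairs; the 80 control pairs were averaged into 1, giving 8129 oligonucleotides, and both spots of a pair were averaged. No value was missing and no filter or further normalization was applied. The number of arrays limits the precision.

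Genes were named through the platform annotation (6752 oligonucleotides with 1 symbol, 7 with several, 1370 unnamed here). The 8 later ages were fitted against 1 week in each strain with limma (version 3.58.1, R 4.3.3) over all 36 arrays. The Hotelling test with a polynomial of degree 2 followed the methods of the study, with 3 and 30 degrees of freedom. The test without a polynomial departed from them: it compared the 8 ages relative to 1 week, with 8 and 20 degrees of freedom, where the methods count 9 time points. P-values were adjusted by Benjamini-Hochberg over 8129 oligonucleotides at 0.05. The fits were tested on simulated data. Promoters came from RefSeq (GRCm38.p6), in which 3 of the 5 measured genes were matched.

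The members, the gene lists and the tests were chosen with earlier results of these data known. All members were named. Of the other complement genes, those called in a strain at 20 weeks or in the mean of the later ages were named, and the 4 with the smallest unadjusted p besides. Of each marker list, up to 3 genes with the smallest unadjusted p in the mean of the later ages could be named, and *Clec7a*, *Iigp1*, *Col1a1* and *Postn* were also named as the few called. Alternatives were centring, scaling, a dye term, loops as a random block, 1 value per mouse, both spots kept apart, no moderation, removal of arrays whose duplicates correlate below 0.3, and each loop left out. Chosen after seeing the data were the mean of the strains, single spots, and the removal of arrays together with a dye term. Figures were drawn with matplotlib (version 3.10.9).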

Additional observations from a re-analysis of the deposited data

Results flagged for a closer look

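At 20 weeks both BSG mice were below and both GSG mice above the 1-week level in *C1qb*, with a difference of -0.35 (BSG minus GSG), and in *Serping1*, with a difference of -0.21. In the mean of the 8 later ages, taken per loop, *Serping1* had both BSG loops below (-0.32 and -0.38) and both GSG loops above (0.33 and 0.05) the 1-week level, with a difference of -0.54, although the 2 GSG mice lay on opposite sides of it at 3 of the 8 ages. The limma test of each of these differences did not pass, with adjusted p of 0.840, 0.920 and 1.00. The spots of *C1qb* correlated at 0.10 and those of *Serping1* at 0.46 over the 36 arrays, and the part that the spots play in these differences was not tested. The share of all oligonucleotides that part the strains in these ways was not counted.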

How the results depend on the processing

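Of 152 recomputed counts of called complement genes, 137 were the same, 10 higher and 5 lower, and of 760 values of single genes 22 changed sign. In the change from 1 to 20 weeks in GSG the count of called genes went from 0 to 1 with a dye term or with the loops as a random block (the replicate block, in which *C3ar1* had an adjusted p of 0.0384), to 2 with both spots kept, and ranged from 0 to 1 with a loop left out. The test of any change with age in GSG ranged from 0 to 1 with a loop left out. For the mean of the strains at 20 weeks the count went from 1 to 0 with scaled arrays, to 0 without the arrays of poor duplicates, with or without a dye term, and to 3 with both spots, and ranged from 0 to 1 with a loop left out. With 1 value per mouse the mean of the later ages gave 2 called genes in BSG, 5 in GSG and 4 in the mean of the strains. That fit treats 8 ages that share a 1-week mouse as independent, and called 2437 and 2859 oligonucleotides in BSG and GSG. The block changed no other call of these genes. The fit with both spots took them to correlate at 0.41, below the 0.88 to 0.91 of *C1qa*, *C1qc* and *C3ar1*.

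The deviations of loop 1 from loop 2 correlated at 0.05 between the strains, over all oligonucleotides and arrays, and the numbers were not used to pair samples. A low value over noisy arrays does not exclude that loops of the same number share something. Sign changes in the mean of the later ages in GSG came without the arrays of poor duplicates, for *C1qa* (-0.84), *C1qb* (-0.077), *C1qc* (-0.34) and *Serping1* (-0.62), and in the mean of the strains for *C1qa* (-0.18), *C1qb* (-0.094) and *C1qc* (-0.0041). Both GSG arrays of 4 over 2.5 weeks are among those left out, so the GSG loops were open in this fit. With a dye term added the GSG values were -0.19 for *C1qa*, -0.064 for *C1qc* and -0.30 for *Serping1*, and that of *C1qb* was 0.52. *Serping1* in GSG at 20 weeks turned to -0.056 without these arrays. With single spots *C1qb* at 20 weeks turned to 0.012 in BSG (first spots) and to -0.063 in the mean of the strains (second spots), and *Serping1* in the mean of the strains to 0.014 at 20 weeks and 0.04 over the later ages (first spots). It turned to 0.004 with centred and 0.026 with scaled arrays and ranged from -0.039 to 0.024 with a loop left out. With a loop left out *C1qb* in BSG ranged from -0.24 to 0.085 over the later ages and its quadratic coefficient from -0.015 to 0.026, and the strain differences at 20 weeks ranged from -0.73 to 0.023 for *C1qa* and from -0.36 to 0.071 for *C1qc*. The cause of these changes was not tested.

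Over all oligonucleotides the calls at 20 weeks ranged from 1 to 373 in BSG (104 in the fit reported) and from 83 to 471 in GSG (304), and for the mean of the strains from 114 to 702 (471). For the later ages they ranged from 1 to 2437 in BSG (6) and from 0 to 2859 in GSG (53), and for any change with age from 1 to 62 in BSG (8) and from 13 to 239 in GSG (48). The strain differences reached 127 calls at 20 weeks and 41 over the later ages, both without BSG loop 2. The Hotelling tests called oligonucleotides only in fits with a loop left out. Those fits pooled the variance over the strains, where the reported tests took it per strain, so the loop was not all that changed. The quadratic coefficient in GSG passed for some oligonucleotides only without GSG loop 2.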
